A study of Mus musculus with 10 samples.

Results

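The added loss of ETV5 was examined by setting the 2 brain libraries labelled as quadruple knockouts of COP1, cJun, ETV1 and ETV5 (QKO) against the 2 labelled as triple knockouts of COP1, cJun and ETV1 (TKO), which are 4 of the 10 libraries of the series. Polyadenylated RNA was sequenced from whole mouse brains, without the olfactory bulbs, at stage E18.5, late in gestation. Both groups lack COP1, cJun and ETV1 by their labels, so ETV5 is the labelled difference between them. The other 6 libraries are 2 heterozygous for COP1 (control), 2 lacking COP1 (KO) and 2 lacking COP1 and cJun (DKO), and they are given here as levels. The labels do not give the alleles, the Cre driver, the strain, the litter or the lane. Whether libraries of one genotype come from separate embryos or litters is not stated, so p-values reflect the spread seen among these libraries, some of which may be technical. Libraries are numbered in accession order, and the numbers pair nothing.

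COP1 is the substrate receptor of a ubiquitin ligase that marks for destruction cJun and the ETS family members ETV1, ETV4 and ETV5. These last form the PEA3 group, which bind DNA around a GGAA core and act downstream of receptor tyrosine kinases and ERK. In the developing mouse cortex, MEK-ERK signalling and ETV5 are known to promote the switch of radial glia from making neurons to making glia, which is under way at this age. Oligodendrocyte precursors arise during the same period and are marked by OLIG2, PDGFRA and SOX10.

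In TKO the libraries held 41113475 and 33403801 counts, and in QKO 38052935 and 41782062. All 4 had the male pattern, with Xist between 0.90 and 1.61 CPM (counts relative to the library's total) and Uty between 24.2 and 26.9 CPM. Control 1 and DKO 1 had the female pattern (Xist at 1848 and 1460 CPM, Uty at 0 CPM), and control 2 and DKO 2 the male one. The libraries of control, and those of DKO, thus came from different embryos, and both sexes enter the shared spread. Some tissue differed between libraries of one genotype. The summed level of the HOX genes, which mark the caudal hindbrain and spinal cord, was 21.7 and 16.5 CPM in the TKO libraries, 35.2 CPM in QKO 1 and 5.74 CPM in QKO 2. Pituitary genes summed to 60.3 CPM in QKO 1 and to between 6.03 and 7.87 CPM in QKO 2 and both TKO libraries. Growth hormone, Gh, was at 55.6 nRPKM in QKO 1 and at 0.0273 to 0.0330 nRPKM in the other 3, where nRPKM is the authors' RPKM, a read count scaled to gene length and depth, with a further scaling between libraries. Erythroid genes summed to 514 and 526 CPM in TKO, 537 CPM in QKO 1 and 684 CPM in QKO 2. The defining markers of the neural lineages were present in all 4 libraries, with the neuronal maturation and synapse list at a summed 9722 to 10060 CPM.

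Of 18671 genes tested, 54 (0.289%) differed between QKO and TKO at an adjusted p under 0.05 in edgeR's quasi-likelihood test with Benjamini-Hochberg adjustment (n = 2 per group). Of these, 22 (0.118%) were higher in QKO and 32 (0.171%) lower, and 30 differed by more than 2-fold. In all 54 the libraries of the groups did not overlap, but among all genes tested 12.8% lay above in both QKO libraries and 15.1% below. The median log2 fold change of all genes tested was 0.00. The genes that passed include 4 of oligodendrocyte precursors and the astrocyte water channel Aqp4, all lower in QKO. Higher in QKO were Etv4, the immediate early gene Egr1, the secreted protease inhibitor Serpina3n and the replication gene Mcm6. The count moved with single libraries: it was 27 without TKO 1, 25 without TKO 2, 80 without QKO 1 and 34 without QKO 2. In 15 of the named genes the call held in all 13 alternative settings and leave-outs.

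**Figure D1:**
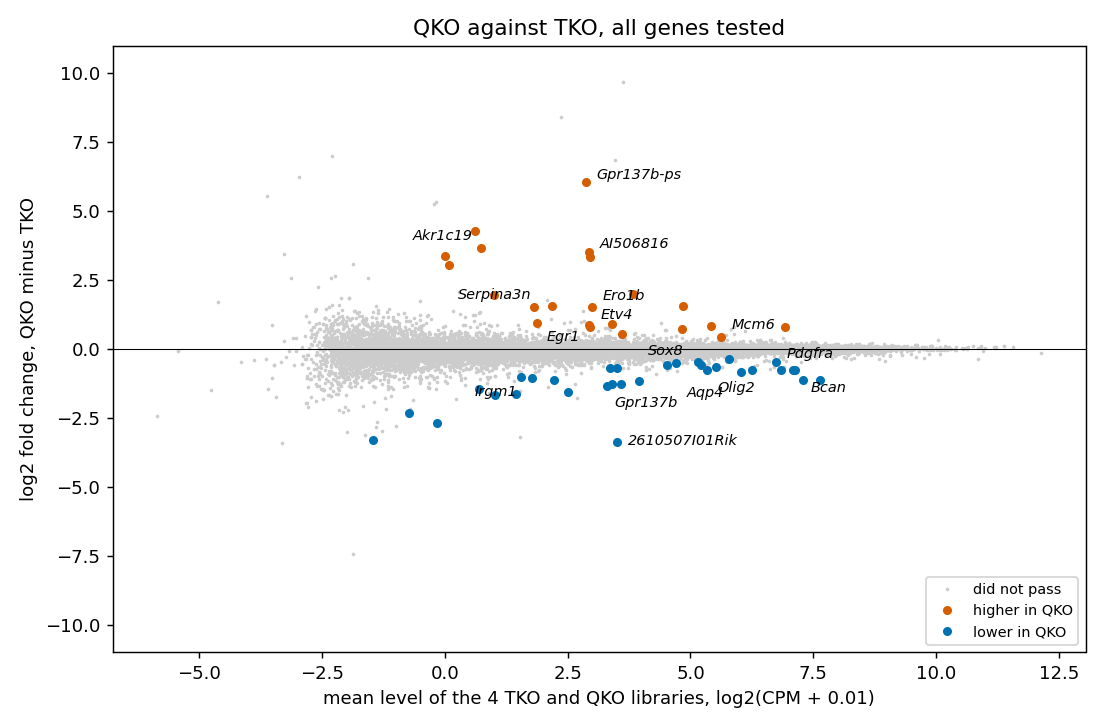
Log2 fold change of QKO over TKO (y axis) against the mean level of the 4 libraries in log2(CPM + 0.01) (x axis), 1 point per gene tested. The 22 genes higher and the 32 lower in QKO at an adjusted p under 0.05 are in colour, and the cloud of other genes lies around 0.

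The promoters of the 4 oligodendrocyte precursor genes that fell are shown because PEA3 factors bind a GGAA core. Each line gives 300 bases of RefSeq sequence for build GRCm38.p6, from 250 bases before to 50 after the annotated start, 5′ to 3′ on the strand of the gene, with GGAA, or its reverse complement TTCC, in capitals. The windows are chr16:91225300-91225599 on the plus strand for Olig2, chr5:75152001-75152300 on the plus strand for Pdgfra, chr3:88000307-88000606 on the minus strand for Bcan and chr17:25570637-25570936 on the minus strand for Sox8.
Olig2: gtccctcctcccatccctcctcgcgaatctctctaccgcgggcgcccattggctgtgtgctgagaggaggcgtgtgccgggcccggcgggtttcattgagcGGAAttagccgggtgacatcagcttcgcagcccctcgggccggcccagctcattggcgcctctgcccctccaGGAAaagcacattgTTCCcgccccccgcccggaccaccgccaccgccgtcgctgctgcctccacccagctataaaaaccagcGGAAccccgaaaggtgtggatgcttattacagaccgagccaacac
Pdgfra: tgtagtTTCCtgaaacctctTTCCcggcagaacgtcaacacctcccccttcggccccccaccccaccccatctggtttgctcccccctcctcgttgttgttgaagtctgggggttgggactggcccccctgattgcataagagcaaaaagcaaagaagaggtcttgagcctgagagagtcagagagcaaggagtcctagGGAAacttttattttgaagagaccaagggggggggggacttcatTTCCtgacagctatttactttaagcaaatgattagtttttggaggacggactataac
Bcan: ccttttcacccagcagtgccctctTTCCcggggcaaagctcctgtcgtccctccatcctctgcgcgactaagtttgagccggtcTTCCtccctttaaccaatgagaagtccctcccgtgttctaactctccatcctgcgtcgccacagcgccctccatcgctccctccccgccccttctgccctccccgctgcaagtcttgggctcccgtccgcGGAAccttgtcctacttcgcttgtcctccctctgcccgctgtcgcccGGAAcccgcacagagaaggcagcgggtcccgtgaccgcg
Sox8: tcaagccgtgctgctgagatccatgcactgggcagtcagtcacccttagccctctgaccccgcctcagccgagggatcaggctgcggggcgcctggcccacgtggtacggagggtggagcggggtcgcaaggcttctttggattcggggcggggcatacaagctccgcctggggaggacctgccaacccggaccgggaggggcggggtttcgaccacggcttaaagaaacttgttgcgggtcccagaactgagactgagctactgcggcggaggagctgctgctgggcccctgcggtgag
GGAA on either strand occurred 4 times in each of the Olig2, Pdgfra and Bcan windows and 0 times in that of Sox8, and it was present in 96.0% of 32851 promoter windows of the same length. The longer ETS motif CCGGAAGT, which contains GGAA, was in none of the 4 windows and in 3.89% of all windows, both strands searched. These letters describe the windows only. The deposited counts were made on the older build NCBIM37, per the submitters' processing notes, and no binding was measured.

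Among the targeted genes, counts run over the whole gene, so a deleted exon may not show. The counts of Etv5, Etv1 and Cop1 therefore do not check the labels. Etv5 (gene 104156) itself was at 3.75 and 3.93 nRPKM in TKO and at 3.97 and 4.11 nRPKM in QKO. Both QKO libraries were slightly higher, and the log2 fold change was 0.07 with a 95% interval from -0.11 to 0.25 (edgeR, adjusted p = 1, n = 2). Its RNA was therefore not detectably lower in the libraries labelled as lacking ETV5, and it was 6.72 and 7.24 nRPKM in the controls. Etv1 (gene 14009), the PEA3 factor that both groups lack by their labels, was at 3.80 and 3.67 nRPKM in TKO and at 4.71 and 4.38 nRPKM in QKO. Its QKO libraries were the higher ones, but the difference did not pass (log2 fold change 0.27 ± 0.11 SE, edgeR adjusted p = 0.741, n = 2). Controls were at 4.82 and 4.95 nRPKM, and KO (1.76 and 2.29) and DKO (1.98 and 2.11), whose labels do not list ETV1, were lower than all 4 libraries compared. Jun (gene 16476), which encodes cJun, was at 1.60 and 1.48 nRPKM in TKO and 2.05 and 1.44 nRPKM in QKO, where the groups overlapped. In control it was at 14.99 and 14.996 nRPKM, and in DKO at 2.94 and 1.61 nRPKM, so that all 4 libraries compared were at the low level of DKO. Cop1 (gene 26374) was at 4.35 and 4.23 nRPKM in TKO and 3.95 and 4.39 nRPKM in QKO, again with overlap.

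Etv4 (gene 18612), the third PEA3 factor and the one that no genotype targets, rose. It was at 2.09 and 2.29 nRPKM in TKO and at 3.83 and 3.88 nRPKM in QKO. The groups were well apart, and the log2 fold change was 0.81 ± 0.12 (SE, edgeR adjusted p = 0.0171, n = 2), a 1.76-fold higher level. The level in QKO was still below that of the controls (5.15 and 6.08 nRPKM) and above those of KO (1.18 and 1.20) and DKO (1.59 and 1.81). QKO against control was not tested here. The call was lost without TKO 1 (adjusted p = 0.198), TKO 2 (0.12) or QKO 2 (0.0777) and with a term for the erythroid level (0.0652), while the log2 fold change stayed between 0.75 and 0.88 over all alternatives. Of the 3 PEA3 genes, all had both QKO libraries above both TKO libraries (against 12.8% of all genes tested), and Etv4 alone passed. The log2 fold changes of Etv5 and Etv1 were small, at 0.07 and 0.27.

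Tribbles pseudokinases bring substrates to COP1, and Trib1 (gene 211770) was the member of the COP1 ligase list with the lowest log2 fold change. Its level was 5.92 and 5.38 nRPKM in TKO and 4.32 and 4.12 nRPKM in QKO, with no overlap. It did not pass in edgeR (log2 fold change -0.43 ± 0.08 SE, adjusted p = 0.0657, n = 2) and passed in DESeq2 (adjusted p = 0.0172). Controls stood at 3.79 and 3.76 nRPKM, and KO at 6.96 and 7.18. Of the 10 tested genes of the COP1 ligase, its cullin scaffold and the Tribbles family, edgeR called 0, limma-voom called 0 and DESeq2 called Trib1. In edgeR 1 had an unadjusted p under 0.05, against 5.78% of all genes tested in either direction. Cul4a, the cullin of the complex, had the highest log2 fold change of the list, at 0.07.

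**Figure D2:**
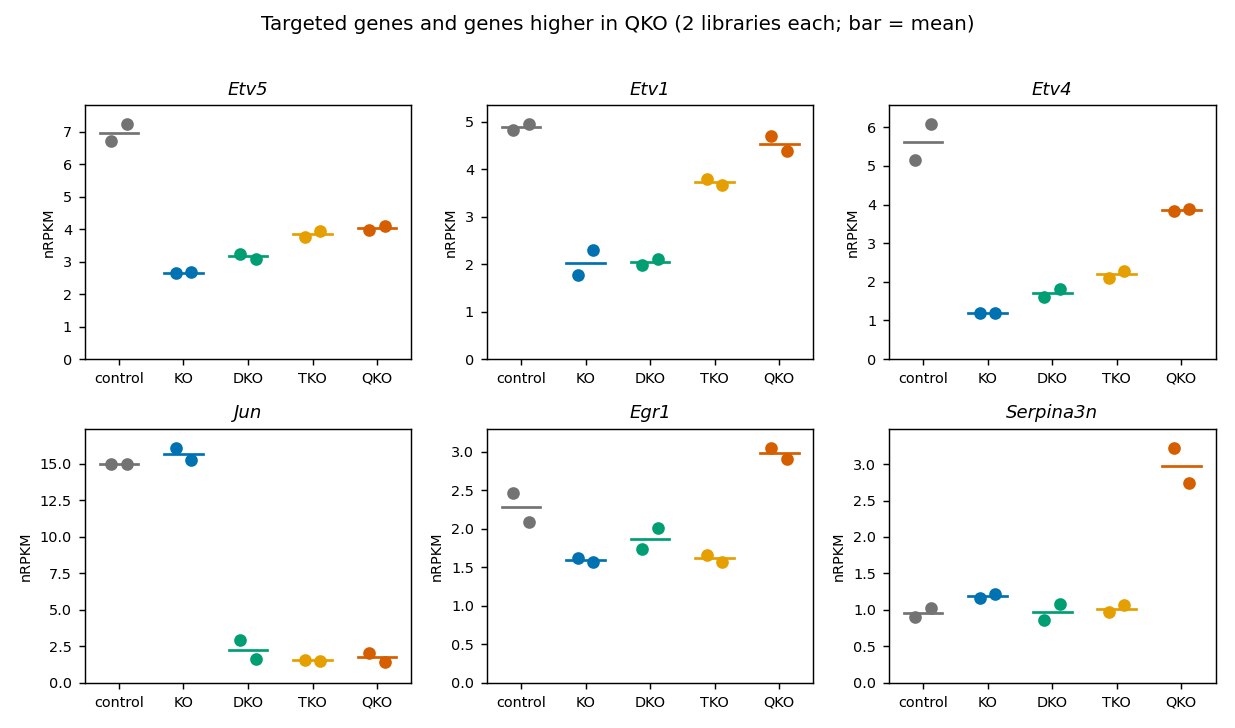
Levels in nRPKM (y axis) of Etv5, Etv1, Etv4, Jun, Egr1 and Serpina3n in the 10 libraries by genotype (x axis), with a point per library and a bar at the mean of 2. Etv5 lies near 4 in TKO and QKO alike, whereas both QKO libraries lie above both TKO libraries for Etv4, Egr1 and Serpina3n.

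Several oligodendrocyte precursor genes fell in QKO. Of 17 tested members of this list, 4 fell at the adjusted threshold (against 0.171% of all genes tested), 11 were lower at an unadjusted p under 0.05 (against 3.58%), 0 were higher at that level, and 11 had both QKO libraries below both TKO libraries (against 15.1%). The median log2 fold change of the list was -0.39, against 0.00 for all genes tested. With 1 library left out it ran from -0.41 (without QKO 1) to -0.30 (without QKO 2). The lists were chosen with earlier results of these data known, so these shares are not an independent test. DESeq2 called 5 and limma-voom 3. Summed over the list, the level was 1983 and 1808 CPM in TKO and 1605 and 1436 CPM in QKO, and 1588 and 1664 CPM in the controls. In bulk tissue, fewer precursors and less of these RNAs per cell cannot be told apart.

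Olig2 (gene 50913), the basic helix-loop-helix factor that specifies the lineage, was at 18.4 and 19.5 nRPKM in TKO and at 11.6 and 10.998 nRPKM in QKO. Every QKO library was below every TKO library, a log2 fold change of -0.76 ± 0.09 (SE, edgeR adjusted p = 0.00346, n = 2). Controls were at 11.9 and 13.01 nRPKM, KO at 28.0 and 25.1, and DKO at 22.9 and 19.7, so the QKO level lay beside that of the controls. The call was lost without TKO 2 (adjusted p = 0.0706) and held in the other 12 alternatives, with log2 fold changes between -0.79 and -0.70. Its neighbour Olig1 (gene 50914), a related factor of the same lineage, was at 57.2 and 67.0 nRPKM in TKO and 41.8 and 37.0 nRPKM in QKO, without overlap. Olig1 did not pass in edgeR (log2 fold change -0.66 ± 0.13 SE, adjusted p = 0.0875, n = 2) but did in DESeq2 (adjusted p = 2.43e-05).

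Bcan (gene 12032), which encodes the matrix proteoglycan brevican made by glial precursors, was at 40.7 and 41.8 nRPKM in TKO and at 27.7 and 20.9 nRPKM in QKO. Both QKO libraries were lower but differed from each other, and the log2 fold change was -0.77 ± 0.12 (SE, edgeR adjusted p = 0.0228, n = 2). Pdgfra (gene 18595), the receptor for the mitogen PDGF-A, was at 17.0 and 16.7 nRPKM in TKO and at 12.8 and 11.8 nRPKM in QKO. These groups did not overlap (log2 fold change -0.46 ± 0.08 SE, edgeR adjusted p = 0.0353, n = 2). Sox8 (gene 20681), a factor of the SOXE group that acts with Sox9 and Sox10 in glia, was at 11.9 and 13.3 nRPKM in TKO and 8.88 and 9.52 nRPKM in QKO. The groups were apart here too (log2 fold change -0.46 ± 0.08 SE, edgeR adjusted p = 0.0441, n = 2). The mean control levels were 29.0 nRPKM for Bcan, 14.1 for Pdgfra and 10.4 for Sox8. Over all alternatives the log2 fold changes stayed between -0.99 and -0.57 for Bcan, -0.52 and -0.39 for Pdgfra, and -0.53 and -0.37 for Sox8. The calls were less stable when 1 library was left out, which leaves 1 library in a group, and the cause was not tested. Bcan did not pass without TKO 1 (adjusted p = 0.162), TKO 2 (0.239) or QKO 2 (0.0677), nor did Pdgfra (0.233, 0.258 and 0.247). Sox8 did not pass when any of the 4 was left out, with adjusted p between 0.11 and 0.543. Over the list, 1 member passed without TKO 1, 0 without TKO 2, 3 without QKO 1 and 1 without QKO 2. A term for the erythroid level left 1 of the 4 called, Olig2, and a term for the HOX level left 4.

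Of the remaining precursor genes, Sox10 and Cspg4 are named after their values were seen. Sox10 (gene 20665), the factor that drives myelin genes, was at 4.85 and 4.72 nRPKM in TKO and 3.94 and 2.90 nRPKM in QKO. Cspg4 (gene 121021), the NG2 proteoglycan, was at 3.94 and 3.84 nRPKM in TKO and 3.33 and 2.55 nRPKM in QKO. Neither passed the adjustment (log2 fold changes -0.49 ± 0.17 and -0.41 ± 0.14 SE, edgeR adjusted p = 0.532 and 0.551, n = 2), although both had QKO below TKO throughout. Ptprz1, a receptor phosphatase of radial glia and precursors and the most abundant member, had a log2 fold change of -0.30 ± 0.11 SE (edgeR adjusted p = 0.583, n = 2). Gpr17, a receptor of later, committed precursors, had the highest log2 fold change of the list, at 0.14.

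Of 13 tested genes of myelin and differentiating oligodendrocytes, 0 passed in edgeR (against 0.289% of all genes tested), DESeq2 or limma-voom. In edgeR 0 had an unadjusted p under 0.05 in either direction (against 5.78%), and the median log2 fold change was -0.05. For a list of this size these counts are near the shares over all genes. Enpp6 (gene 320981), a choline phosphodiesterase of newly forming oligodendrocytes, had the highest log2 fold change of the list and was at 0.0659 and 0.131 nRPKM in TKO and at 0.210 and 0.130 nRPKM in QKO. The groups overlapped at these low levels, and the 95% interval of the log2 fold change ran from -0.17 to 1.77 (edgeR adjusted p = 0.98, n = 2). Whether the myelin list differed from the precursor list was not tested.

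**Figure D3:**
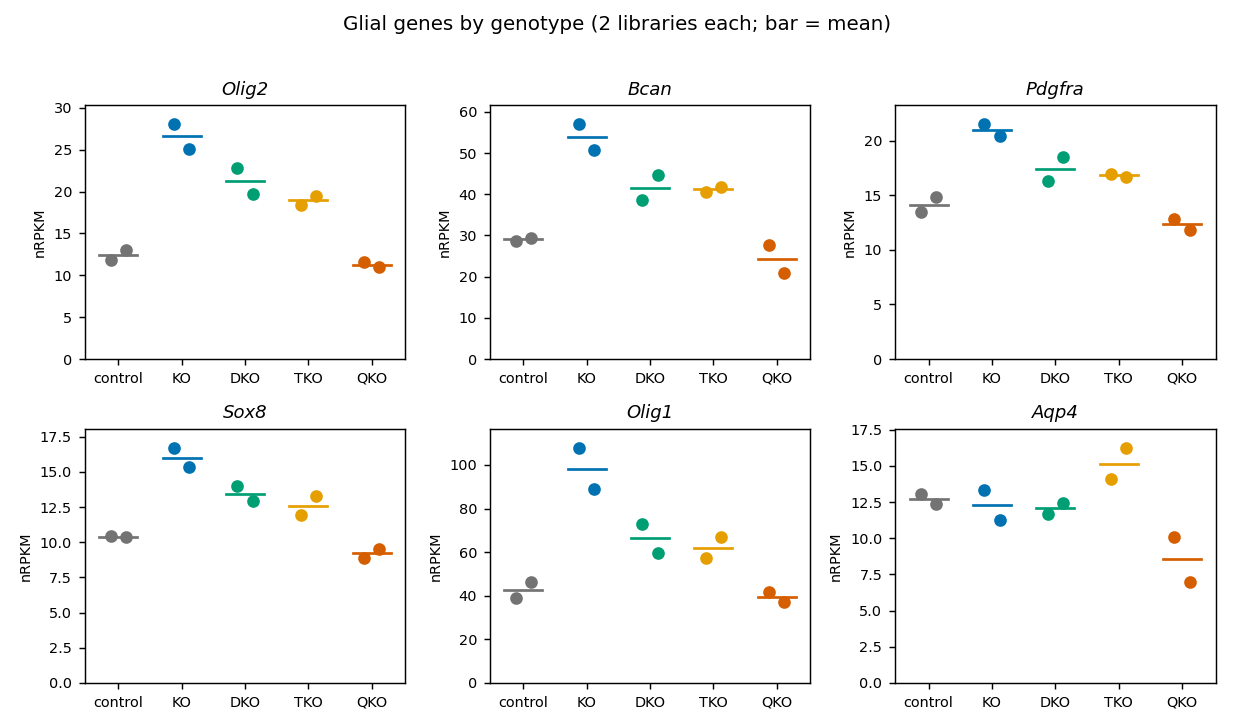
Levels in nRPKM (y axis, from 0) of Olig2, Bcan, Pdgfra, Sox8, Olig1 and Aqp4 in the 10 libraries by genotype (x axis), with a point per library and a bar at the mean of 2. Both QKO libraries are below both TKO libraries in each panel. In every panel but that of Olig1 they are also below the libraries of the other genotypes.

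Of 20 tested astrocyte genes, 1 fell (against 0.171% of all genes tested), 9 were lower at an unadjusted p under 0.05 (against 3.58%) and 0 higher, and 12 had QKO below TKO without overlap (against 15.1%), with a median log2 fold change of -0.18. The shift was uneven: as a mean log2 level relative to the controls, the list was at -0.05 in QKO 1 and -0.27 in QKO 2. In TKO it was at 0.05 and 0.12. The median log2 fold change was -0.28 without QKO 1 and -0.14 without QKO 2. Whether this list differed from the precursor list was not tested. Aqp4 (gene 11829), the water channel of astrocyte end feet, was at 14.1 and 16.2 nRPKM in TKO and 10.1 and 6.96 nRPKM in QKO. Both QKO libraries were lower than any of the other 8, whose range was 11.3 to 16.2 nRPKM, and the log2 fold change was -0.83 ± 0.15 (SE, edgeR adjusted p = 0.0441, n = 2). That call was lost without TKO 1 (adjusted p = 0.162), TKO 2 (0.543) or QKO 2 (0.118), and also with upper-quartile size factors (0.0607), with the filter of 1 CPM in 2 libraries (0.0605) and with a term for the erythroid level (0.0766). Gfap (gene 14580), the intermediate filament of astrocytes, was at 4.33 and 7.10 nRPKM in TKO and 4.08 and 2.12 nRPKM in QKO, and its wide spread left it uncalled (log2 fold change -0.89 ± 0.27 SE, edgeR adjusted p = 0.405, n = 2).

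The glutamate transporter Slc1a3 (gene 20512) and the growth factor receptor Fgfr3 (gene 14184), both shared by radial glia and astrocytes and named after their values were seen, also had QKO below TKO. Slc1a3 was at 77.0 and 78.2 nRPKM in TKO and at 62.9 and 61.9 nRPKM in QKO, and Fgfr3 was at 12.6 and 12.9 nRPKM in TKO and 10.3 and 8.55 nRPKM in QKO. edgeR did not call either (adjusted p = 0.107 and 0.129, n = 2), whereas DESeq2 did (adjusted p = 0.0023 and 0.00825). The same held for Sparcl1, an abundant secreted astrocyte protein, at 165 and 170 nRPKM in TKO and 130 and 122 nRPKM in QKO (edgeR adjusted p = 0.0749, n = 2, and DESeq2 adjusted p = 0.000107).

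Radial glia, the neural stem cells of this age, showed 0 calls among 19 tested genes in edgeR and limma-voom and 2 in DESeq2 (Ednrb and Slc1a3), with 4 lower (against 3.58% of all genes tested) and 0 higher at an unadjusted p under 0.05 and a median log2 fold change of -0.07. QKO was below TKO without overlap in 7 (against 15.1%) and above in 2 (against 12.8%). The fatty acid binding protein Fabp7 (gene 12140) was at 564 and 640 nRPKM in TKO and 584 and 608 nRPKM in QKO, which overlap. Vim (gene 22352), an intermediate filament, was at 130 and 125 nRPKM in TKO and 122 and 134 nRPKM in QKO, with a log2 fold change interval of -0.16 to 0.16. Ednrb (gene 13618), an endothelin receptor, had the lowest log2 fold change of the list (-0.36 ± 0.07 SE, edgeR adjusted p = 0.0901, n = 2).

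Intermediate progenitors, the dividing neuron precursors between radial glia and projection neurons, had 0 calls among 14 tested genes in edgeR, DESeq2 and limma-voom. Their values leaned upward: 4 were higher at an unadjusted p under 0.05 (against 2.2% of all genes tested), 0 lower, and 9 had QKO above TKO without overlap (against 12.8%), with a median log2 fold change of 0.21. Without QKO 2 none had an unadjusted p under 0.05 and the median was 0.0866, and without TKO 2 the numbers were 1 and 0.113. Neurog2 (gene 11924), a proneural factor, was at 4.60 and 3.61 nRPKM in TKO and 4.85 and 6.48 nRPKM in QKO. Eomes (gene 13813), the T-box factor that marks these cells, was at 6.40 and 5.72 nRPKM in TKO and 7.03 and 8.94 nRPKM in QKO. Both are named after their values were seen, and neither passed (edgeR adjusted p = 0.489 and 0.684, n = 2). In the lists of cortical projection neurons, GABAergic neurons and neuronal maturation, edgeR called 0 of 18, 0 of 16 and 0 of 26 tested genes, with 1, 0 and 2 at an unadjusted p under 0.05 in either direction (against 5.78% of all genes tested). DESeq2 and limma-voom also called 0 in each.

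Egr1 (gene 13653), a zinc finger factor induced within minutes by ERK signalling and neuronal activity, rose. It was at 1.66 and 1.57 nRPKM in TKO and at 3.05 and 2.91 nRPKM in QKO. The QKO libraries were higher than each of the other 8, which lay between 1.57 and 2.47 nRPKM, and the log2 fold change was 0.88 ± 0.12 (SE, edgeR adjusted p = 0.0123, n = 2). Without TKO 1 or TKO 2 it did not pass (adjusted p = 0.115 and 0.187). It was the only one of 20 tested immediate early genes to pass (against 0.289% of all genes tested). With Egr1 included, 4 were higher (against 2.2% of all genes tested) and 3 lower (against 3.58%) at an unadjusted p under 0.05, 6 had QKO above TKO without overlap (against 12.8%) and 3 below (against 15.1%), and the median log2 fold change was 0.09. The other higher ones were the matrix protein gene Ccn1, the antiproliferative gene Btg2 and the MAP kinase phosphatase gene Dusp1, with log2 fold changes of 0.32, 0.28 and 0.25 (edgeR adjusted p = 0.563, 0.690 and 0.488, n = 2). The lower ones were Arc, Nptx2 and Egr4, at -0.54, -0.23 and -0.72, and these 6 are named after their values were seen. Arc (gene 11838), a synaptic immediate early gene, was at 1.62 and 1.80 nRPKM in TKO and at 1.22 and 1.14 nRPKM in QKO (edgeR adjusted p = 0.284, n = 2), the opposite side from Egr1.

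Feedback inhibitors of ERK signalling are common targets of the pathway and of PEA3 factors. Apart from Egr1, edgeR, DESeq2 and limma-voom called 0 of the other 16 tested genes of this list, which had a median log2 fold change of 0.00 with Egr1 included. Of these 16, 1 was higher at an unadjusted p under 0.05 (Spred3, log2 fold change 0.18), against 2.2% of all genes tested. At that level 3 were lower (against 3.58%), the Sprouty genes Spry1, Spry2 and Spry4 (log2 fold changes -0.27, -0.26 and -0.27). All 4 are named after their values were seen. Spry1 (gene 24063) was at 7.52 and 7.43 nRPKM in TKO and 6.20 and 6.26 nRPKM in QKO, without overlap (edgeR adjusted p = 0.389, n = 2). Spry2 was at 17.5 and 15.8 nRPKM in TKO and 12.9 and 15.1 nRPKM in QKO. Dusp6 (gene 67603), the ERK phosphatase often read as a measure of the pathway, was at 11.8 and 11.4 nRPKM in TKO and 10.2 and 11.3 nRPKM in QKO, a log2 fold change of -0.11 with a 95% interval from -0.28 to 0.06.

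Serpina3n (gene 20716), a serine protease inhibitor secreted by reactive astrocytes, rose 2.92-fold. It was at 0.969 and 1.06 nRPKM in TKO and at 3.22 and 2.74 nRPKM in QKO. All 8 libraries of the other genotypes lay between 0.855 and 1.21 nRPKM, and the log2 fold change of 1.55 ± 0.16 (SE, edgeR adjusted p = 0.00129, n = 2) passed in every alternative. It was the only call among 14 tested genes of reactive glia (against 0.289% of all genes tested), whose median log2 fold change was -0.01. With Serpina3n included, 3 were higher (against 2.2%) and 1 lower (against 3.58%) at an unadjusted p under 0.05. Spp1 (gene 20750), which encodes osteopontin and is named after its values were seen, was at 7.57 and 9.69 nRPKM in TKO and at 13.3 and 11.2 nRPKM in QKO (edgeR adjusted p = 0.513, n = 2). Gfap, also on this list, lay on the other side, as given with the astrocyte genes.

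Mcm6 (gene 17219), a subunit of the replicative helicase, rose from 13.1 nRPKM in both TKO libraries to 18.2 and 17.9 nRPKM in QKO (log2 fold change 0.45 ± 0.06 SE, edgeR adjusted p = 0.00884, n = 2). The other genotypes stood between 16.3 and 18.6 nRPKM, so that TKO was the low group. Without TKO 1 or TKO 2 the call was lost (adjusted p = 0.0953 and 0.119). The rest of the proliferation list did not follow it. Of 23 tested genes, 1 passed (against 0.289% of all genes tested), and the median log2 fold change was 0.01. At an unadjusted p under 0.05, 1 was lower (against 3.58%), which was Pcna, the replication clamp (log2 fold change -0.44). The proliferation antigen Mki67, named after its values were seen, was at 10.9 and 8.66 nRPKM in TKO and 9.35 and 9.87 nRPKM in QKO, which overlap.

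**Figure D4:**
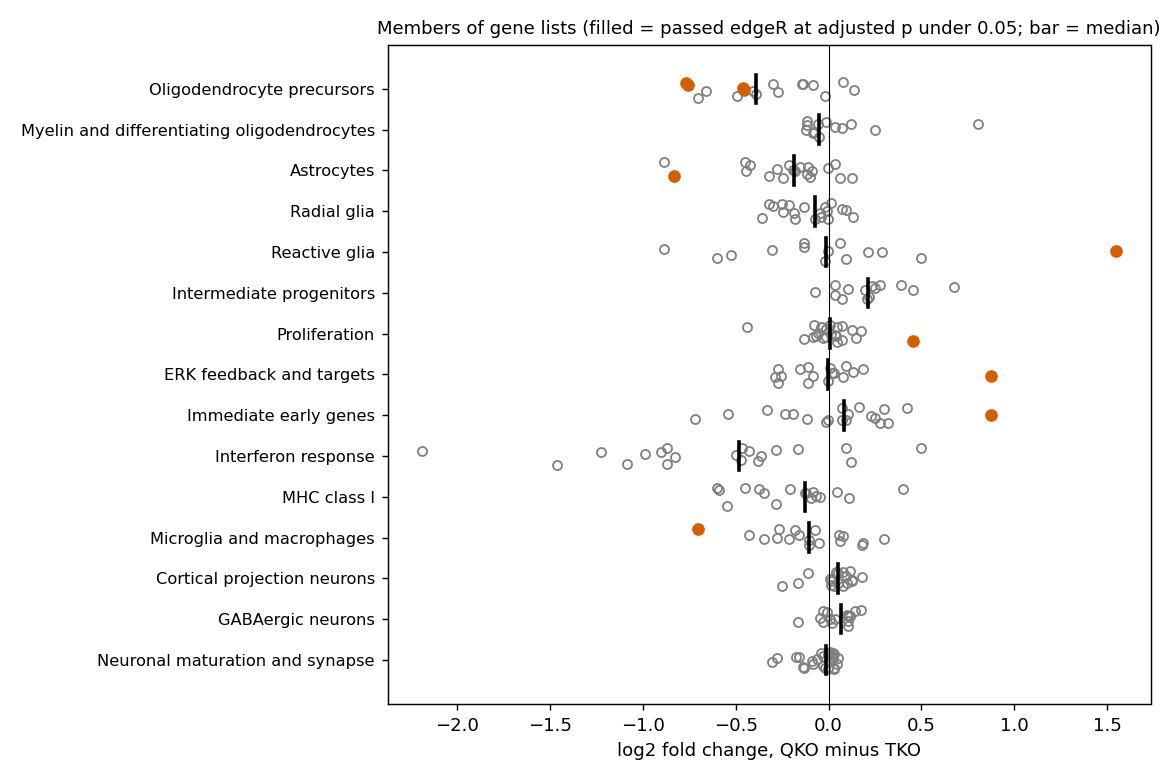
Log2 fold change of QKO over TKO (x axis) for each tested member of 15 gene lists (y axis), filled where edgeR's adjusted p was under 0.05, with a bar at the median of the list. Precursor, astrocyte and interferon genes lie mostly left of 0, at medians of -0.39, -0.18 and -0.48, and the neuronal lists lie close to 0.

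Interferon response genes, which cells switch on after type I interferon binds its receptor, were the list with the most members lower at an unadjusted p. Of 20 tested, edgeR, DESeq2 and limma-voom each called 0, while 14 were lower at an unadjusted p under 0.05 (against 3.58% of all genes tested), 15 had both QKO libraries below both TKO libraries (against 15.1%) and the median log2 fold change was -0.48. With no filter on low counts edgeR called 5, among them Isg15, Oasl2, Usp18 and Bst2. Without TKO 2 or without QKO 2 the number at an unadjusted p under 0.05 was 8. As a mean log2 level relative to the controls, the list was at 0.23 and 0.50 in TKO and at -0.14 and -0.35 in QKO, and it was at -0.24 and -0.09 in KO and at -0.09 and -0.23 in DKO. The TKO libraries thus lay above all others, while the QKO libraries lay below the controls and overlapped with KO and DKO.

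Isg15 (gene 100038882), a ubiquitin-like modifier and one of the most inducible interferon genes, was at 2.46 and 2.90 nRPKM in TKO and at 1.42 and 1.11 nRPKM in QKO. Usp18 (gene 24110), the protease that removes it, was at 0.608 and 0.724 nRPKM in TKO and at 0.297 and 0.187 nRPKM in QKO. Neither overlapped between groups or passed (edgeR adjusted p = 0.0841 and 0.0901, n = 2), and both are named after their values were seen. Ifit1, at the low end of the list, had a log2 fold change of -2.19 ± 0.67 SE at levels below 0.5 nRPKM. Genes inducible by interferon that passed but are not on the list included Irgm1 (gene 15944), an immunity GTPase, and Ifih1 (gene 71586), the RNA sensor MDA5, which is named after its values were seen. Irgm1 lies on chromosome 11, 22 tested genes from Ublcp1, which also fell, and the part of position in its fall was not tested. Irgm1 was at 1.98 and 1.82 nRPKM in TKO and 0.987 and 0.845 nRPKM in QKO (log2 fold change -1.06 ± 0.16 SE, edgeR adjusted p = 0.0231, n = 2). Ifih1 was at 0.553 and 0.750 nRPKM in TKO and 0.329 and 0.309 nRPKM in QKO (-1.03 ± 0.17 SE, edgeR adjusted p = 0.038, n = 2). The Irgm1 call was lost without TKO 1, TKO 2 or QKO 2 (adjusted p = 0.215, 0.154 and 0.188), and the Ifih1 call without TKO 2, QKO 1 or QKO 2 (0.43, 0.0823 and 0.255). With a term for the erythroid level both were lost (0.0828 and 0.15), and Ifih1 was also lost in limma-voom (0.0668), in the fit of the 4 libraries alone (0.0959) and with a term for the HOX level (0.0555).

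Antigen presentation by MHC class I is itself induced by interferon. Of its 17 tested genes edgeR, DESeq2 and limma-voom called 0, 3 were lower at an unadjusted p under 0.05 (against 3.58% of all genes tested), 8 had QKO below TKO without overlap (against 15.1%) and the median log2 fold change was -0.13. B2m (gene 12010), the invariant light chain, was at 24.95 and 31.4 nRPKM in TKO and at 22.5 and 18.9 nRPKM in QKO, and the peptide transporter Tap1 (gene 21354) was at 1.44 and 1.38 nRPKM in TKO and 0.818 and 1.05 nRPKM in QKO. Neither passed, although QKO was below TKO throughout (edgeR adjusted p = 0.248 and 0.212, n = 2).

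Microglia and macrophage genes, whose cells respond to interferon, summed to 255 CPM in each TKO library and to 247 and 230 CPM in QKO, and their part in these results was not tested. Of 18 tested, 1 fell (against 0.171% of all genes tested): Lyve1 (gene 114332), a hyaluronan receptor of border macrophages and lymphatic vessels. Lyve1 was at 4.60 and 4.33 nRPKM in TKO and 2.96 and 2.56 nRPKM in QKO (log2 fold change -0.70 ± 0.12 SE, edgeR adjusted p = 0.0441, n = 2). The median log2 fold change of the list was -0.11. The Lyve1 call was lost without TKO 1, TKO 2 or QKO 2, at adjusted p = 0.324, 0.271 and 0.307. It was lost too with upper-quartile size factors (0.0525), in limma-voom (0.0546) and with a term for the HOX (0.0663) or the erythroid level (0.15).

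The genes with the largest differences were mostly outside these programs, and several are neighbours. On chromosome 13, 8 of 631 tested genes were called, or 1.27%, against 0.289% of all genes tested. Of these, 3 stand next to each other or with 1 tested gene between: Ero1b, Gpr137b-ps and Gpr137b. Ero1b (gene 67475), an oxidase of the endoplasmic reticulum, was at 0.879 and 0.901 nRPKM in TKO and at 2.79 and 2.32 nRPKM in QKO. Gpr137b-ps (gene 664862), annotated as a pseudogene, was at 0.0305 and 0.109 nRPKM in TKO and at 4.48 and 4.50 nRPKM in QKO. Gpr137b (gene 83924), a lysosomal membrane protein and its near-identical copy, went the other way, from 6.87 and 6.37 nRPKM in TKO to 2.93 and 2.98 nRPKM in QKO. The log2 fold changes were 1.52 ± 0.13, 6.05 ± 0.29 and -1.17 ± 0.09 (SE, edgeR adjusted p = 0.00029, 1.44e-06 and 0.0002, n = 2). Only uniquely aligned reads were counted, per the file headers. Whether those were assigned to the right copy was not tested, so the split between Gpr137b and Gpr137b-ps is uncertain. In KO, Gpr137b-ps stood at 2.53 and 2.78 nRPKM, against at most 0.109 nRPKM in control, DKO and TKO, while Gpr137b was at 5.24 and 5.50 nRPKM there.

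Also on chromosome 13, the adjacent genes Akr1c19 and Marcksl1-ps4 rose together. Akr1c19 (gene 432720), an aldo-keto reductase, was at 0.235 and 0.107 nRPKM in TKO and at 2.23 and 2.35 nRPKM in QKO, and Marcksl1-ps4 (gene 111002), a pseudogene, was at 0.258 and 0.128 nRPKM in TKO and 1.88 and 1.44 nRPKM in QKO. The pair had the same order across genotypes, with DKO at most 0.138 nRPKM and control and KO between 0.685 and 0.956 nRPKM. Their log2 fold changes were 3.68 ± 0.29 and 3.04 ± 0.34 (SE, edgeR adjusted p = 0.000218 and 0.00198, n = 2). Tmem267 (gene 633640), a membrane protein gene on the same chromosome, rose from 5.66 and 4.32 nRPKM in TKO to 20.2 and 19.8 nRPKM in QKO, with calls lost without TKO 1 (adjusted p = 0.0546) or TKO 2 (0.136).

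On chromosome 11, 7 of 1361 tested genes were called, or 0.514%, against 0.289% of all genes tested. Of these, Etv4 rose, and Ublcp1, Irgm1, Lyrm7, 2610507I01Rik, Mrpl55 and Ubb fell. The locus 2610507I01Rik (gene 72203) had the smallest p of all genes and fell from 6.67 and 6.43 nRPKM in TKO to 0.617 and 0.663 nRPKM in QKO (log2 fold change -3.36 ± 0.11 SE, edgeR adjusted p = 8.21e-08, n = 2). Control and KO were between 5.86 and 6.72 nRPKM and DKO was at 3.40 and 3.44 nRPKM, which lies between. The next tested gene, Mrpl55 (gene 67212), a mitochondrial ribosomal protein named after its values were seen, was at 16.1 and 16.8 nRPKM in TKO and at 9.28 and 11.3 nRPKM in QKO (edgeR adjusted p = 0.0301, n = 2). Mrpl55 was not called without TKO 1, TKO 2 or QKO 1 (adjusted p = 0.177, 0.319 and 0.0859). On chromosome 12, 3110053B16Rik and 2410018L13Rik, which fell, and Gm4983, which rose and is named after its values were seen, lie 6 and 8 tested genes apart, between 70 and 84 tested genes from Etv1. These 3 calls were lost when any of the 4 libraries was left out, at adjusted p between 0.0553 (Gm4983) and 0.289 (3110053B16Rik).

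AI506816 (gene 433855), an uncharacterised locus on chromosome 5, took only 2 levels over the series. It was at 0.367 and 0.436 nRPKM in TKO and at 0.329 and 0.320 nRPKM in KO. In QKO it was at 5.01 and 4.34 nRPKM, and in control and DKO between 4.37 and 4.59 nRPKM. The log2 fold change was 3.54 ± 0.14 (SE, edgeR adjusted p = 2.15e-07, n = 2), and the level thus does not follow the order in which genes were removed.

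A ubiquitin gene and its copy also moved in opposite directions. Ubb (gene 22187), which encodes a polyubiquitin, was at 204 and 224 nRPKM in TKO and at 122 and 75.9 nRPKM in QKO, while its processed copy Ubb-ps (gene 218963) was at 1.56 and 2.05 nRPKM in TKO and 10.9 and 25.8 nRPKM in QKO. DKO stood between for Ubb (145 and 135 nRPKM) and high for Ubb-ps (10.6 and 13.2 nRPKM). The log2 fold changes were -1.12 ± 0.16 and 3.35 ± 0.36 (SE, edgeR adjusted p = 0.0164 and 0.00151, n = 2). Both are uncertain, because whether reads were assigned to the right copy was not tested. Without TKO 1 neither passed (adjusted p = 0.107 for Ubb and 0.0674 for Ubb-ps), and without TKO 2 Ubb did not (0.215).

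**Figure D5:**
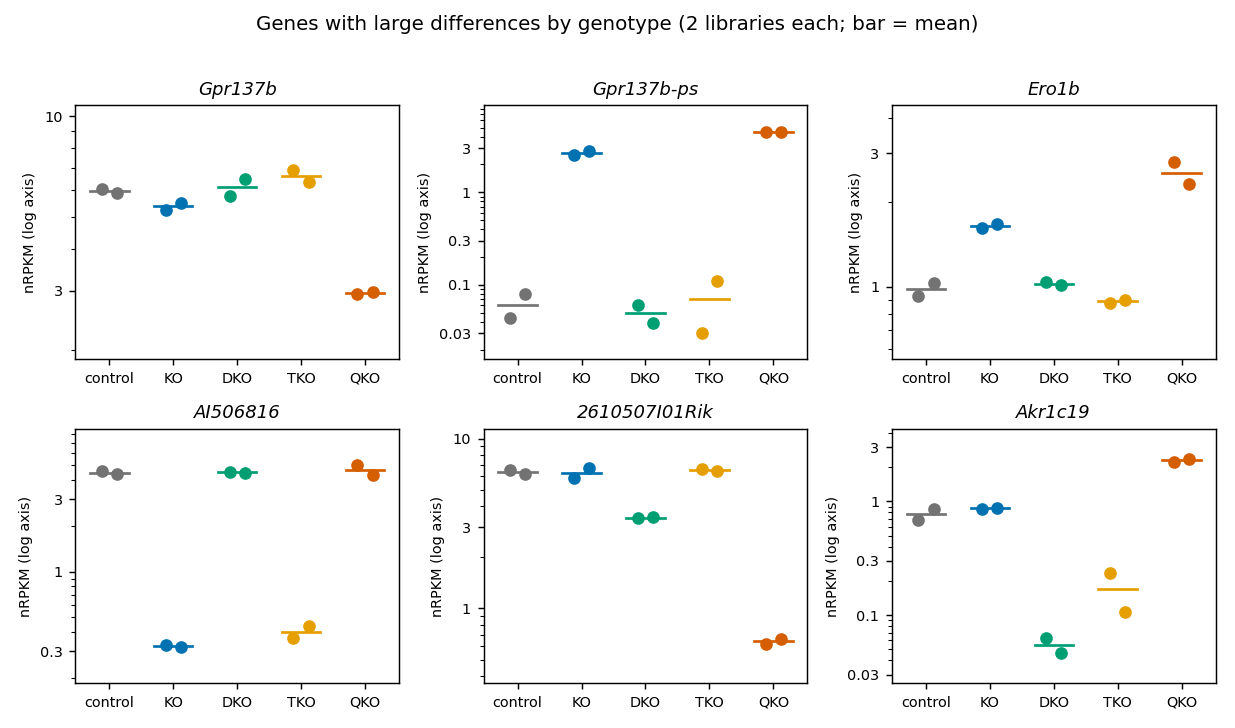
Levels in nRPKM (y axis, logarithmic) of Gpr137b, Gpr137b-ps, Ero1b, AI506816, 2610507I01Rik and Akr1c19 in the 10 libraries by genotype (x axis), with a point per library and a bar at the mean of 2. Gpr137b-ps is high in KO and QKO, AI506816 is low in KO and TKO, and 2610507I01Rik is lowest in both QKO libraries.

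Around the targeted genes, none of the 50 nearest tested genes of Etv5, Etv1, Jun or Cop1 (25 on either side) was called by edgeR, and 5, 1, 6 and 2 of them had an unadjusted p under 0.05 in either direction, against 5.78% of all genes tested. Olig2 lies on the chromosome of Etv5, 16, but 266 tested genes away. The genes with at most 3 counts in both libraries of one group and at least 30 in both of the other were Sycp1 and 1 unnamed gene with nearly the same counts. Sycp1 (gene 20957), a protein of the meiotic synaptonemal complex, had 2 and 1 counts in TKO and 72 and 65 in QKO, a ratio of 42.8 with a counting interval from 14.3 to 210. It was not called (edgeR adjusted p = 0.209, n = 2), and its counts in control (159 and 55), KO (37 and 134) and DKO (0 and 8) varied widely within a genotype.

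Other genes that rose include Pla2g4e (gene 329502), a phospholipase, from 3.27 and 2.66 nRPKM in TKO to 7.11 and 10.6 nRPKM in QKO (log2 fold change 1.57 ± 0.17 SE, edgeR adjusted p = 0.00151, n = 2). Scg5 (gene 20394), the neuroendocrine chaperone of prohormone convertase 2, was at 63.8 and 69.2 nRPKM in TKO and 98.4 and 134 nRPKM in QKO. Alad (gene 17025), an enzyme of haem synthesis, was at 14.9 and 13.9 nRPKM in TKO and at 26.1 and 22.3 nRPKM in QKO. Scg5 and Alad were called (edgeR adjusted p = 0.0128 and 0.0256, n = 2) and lost their calls without TKO 1 (0.182 and 0.177) or TKO 2 (0.12 and 0.363), Alad also without QKO 1 (0.085). For Alad the TKO level was the low one, since the controls were at 22.2 and 22.8 nRPKM. Eif3j2, a translation factor gene with a close copy, and the pseudogene Rtraf-ps also rose, with log2 fold changes of 1.53 and 0.90 that are uncertain because of those copies. Both calls were lost without TKO 1 (adjusted p = 0.226 and 0.231) or QKO 2 (0.209 and 0.262), and that of Eif3j2 also without TKO 2 (0.478).

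Among genes that fell, Crb1 (gene 170788), an apical polarity protein of neuroepithelium and retina, was at 1.75 and 1.54 nRPKM in TKO and at 0.549 and 0.574 nRPKM in QKO (log2 fold change -1.56 ± 0.14 SE, edgeR adjusted p = 0.000465, n = 2). The other 6 libraries were between 1.05 and 1.25 nRPKM, so QKO was the lowest group and TKO the highest. Metap1d (gene 66559), a mitochondrial methionine aminopeptidase, was at 12.2 and 12.6 nRPKM in TKO and 5.92 and 4.31 nRPKM in QKO, against 9.93 to 12.4 nRPKM in the other 6. Lyrm7 (gene 75530), an assembly factor of respiratory complex III, was at 2.48 and 2.90 nRPKM in TKO and 1.33 and 1.16 nRPKM in QKO. All 3 calls held in every alternative (adjusted p at most 0.0156 for Crb1, 0.022 for Metap1d and 0.0466 for Lyrm7).

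A different order was seen in Rec8, Hjurp, Car3 and Gstm6, whose TKO level was above that of the controls and whose QKO level was lower than TKO. Rec8 (gene 56739), a meiotic cohesin, was at 0.0624 and 0.0620 nRPKM in control, 0.658 and 0.718 nRPKM in TKO and 0.0934 and 0.119 nRPKM in QKO. Hjurp (gene 381280), the chaperone of the centromeric histone CENP-A, named after its values were seen, was at 9.62 and 9.51 nRPKM in control, 19.5 and 18.6 nRPKM in TKO and 11.8 and 10.99 nRPKM in QKO. Both calls held in every alternative (log2 fold changes -2.68 ± 0.29 and -0.74 ± 0.07 SE, edgeR adjusted p = 0.00173 and 0.000583, n = 2). The unnamed genes ID78605 and ID212427 had log2 fold changes of -0.77 and -0.78, and whether they share reads with another gene is not given. Car3 (gene 12350), a carbonic anhydrase, was at 2.23 and 2.69 nRPKM in TKO and 0.637 and 0.9503 nRPKM in QKO, and Gstm6 (gene 14867), a glutathione transferase, was at 1.68 and 2.06 nRPKM in TKO and 0.726 and 0.634 nRPKM in QKO. The Car3 call was lost without TKO 1, TKO 2 or QKO 1 (adjusted p = 0.11, 0.27 and 0.083) and that of Gstm6 without any of the 4 (between 0.0724 and 0.43).

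The remaining named genes that fell and are named after their values were seen are Kcnip3, a calcium-binding modulator of potassium channels, Tmem229a, Scp2, a sterol carrier of peroxisomes, Epdr1 and Rapgef4, a cAMP-activated exchange factor. Their log2 fold changes were -0.64, -0.59, -0.51, -0.57 and -0.35. Kcnip3 (gene 56461) was at 14.7 and 16.9 nRPKM in TKO and 10.9 and 9.41 nRPKM in QKO, and Tmem229a (gene 319832) at 7.89 and 8.55 nRPKM in TKO and 5.596 and 5.34 nRPKM in QKO. Both QKO levels were near those of the controls (10.3 and 10.7, and 5.63 and 5.51 nRPKM). Without TKO 2 or QKO 2 neither passed (adjusted p = 0.205 and 0.106 for Kcnip3, 0.12 and 0.0693 for Tmem229a). Scp2, Epdr1 and Rapgef4 lost their calls without any 1 of the 4 libraries (adjusted p between 0.118 and 0.478 for Scp2, 0.0503 and 0.407 for Epdr1, 0.0526 and 0.43 for Rapgef4). Ublcp1, a ubiquitin-like domain phosphatase, fell from 5.51 and 6.54 nRPKM to 2.50 and 2.29 nRPKM (log2 fold change -1.34, edgeR adjusted p = 0.0353, n = 2) and also lost its call without any of the 4 (adjusted p between 0.0839 and 0.43).

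Of the 46 named calls, 21 were lost with a term for the erythroid level. Beside those already given, they were Ubb, Scg5, Alad, Eif3j2, Rtraf-ps, 2410018L13Rik, Gm4983, Mrpl55, Car3, Gstm6, Ublcp1, Epdr1 and Rapgef4. Sox8, Rtraf-ps, Rapgef4 and Scp2 were lost with upper-quartile size factors, Sox8, Ublcp1, Rapgef4 and Scp2 in limma-voom, and Sox8, Rtraf-ps, Mrpl55, Rapgef4 and Gm4983 in the fit of the 4 libraries alone. Gstm6, Ublcp1 and Rapgef4 were lost with a term for the HOX level, 2410018L13Rik in DESeq2 and Scp2 with RLE size factors.

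Of 46 gene lists, 9 held a called gene and 37 did not. In those 37, between 0 and 14 members had an unadjusted p under 0.05, DESeq2 called 5 genes in 4 lists and limma-voom called 0. Their median log2 fold changes ran from -0.48 for interferon genes to 1.27 for the pituitary list, on which QKO 1 stood apart.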

How the data were processed

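RNA was measured in 10 libraries, 2 per genotype, prepared from 1 microgram of total RNA by a TruSeq kit and sequenced from both ends (75 bp reads, 5 libraries in a lane), per the labels' protocols. The submitters' processing notes name GSNAP, without a version, and the build NCBIM37. Per the file headers, a deposited count holds the uniquely aligned reads of a gene, and the deposited nRPKM is the RPKM after scaling by library size factors. Not given in the sources used here are the annotation and the handling of strand, so a gene and its antisense partner may share reads. Whether uniquely aligned reads were assigned to the right one among near-identical copies was not tested.

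The files list 28059 Entrez identifiers. RefSeq for GRCm38.p6, used for names, gene order and promoter windows, named 24998 of them (89.1%), which hold 95.8% of the counts. Of the 54 called genes, 8 stayed unnamed. The tests used edgeR 4.0.16 (R 4.3.3): TMM, filterByExpr (18671 genes kept, 9388 set aside), 5 group means over all 10 libraries, the quasi-likelihood test of QKO minus TKO, and p-values adjusted by Benjamini-Hochberg over every tested gene, with calls at an adjusted p under 0.05. The 5 groups shared one spread, with 5 residual degrees of freedom, at a common BCV (biological coefficient of variation) of 0.0821. The step was also run on counts simulated with the spread fitted to these data. Those counts follow the model that the test assumes, so they lend no support to the calls. Such counts cannot check tissue differences between libraries or replicates that may be technical. Standard errors come from the F statistic. A floor of 3 counts was between 0.0718 and 0.0898 CPM in the 4 libraries, a bound on counting error only, as is the exact interval of a count ratio (95%). Replicates differed by more than sampling noise, with a chi-square per degree of freedom of 7.71 in TKO and 19.5 in QKO.

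The members, the 46 lists and the rules were chosen with earlier results of these data known. Named genes are Cop1, Jun, Etv1, Etv4 and Etv5, up to 15 called genes each way by fold, called, abundant and extreme members of the lists described, and genes stated as named after their values were seen. Some genes the rule names are not reported here. Of 776 list symbols, 6 matched no identifier. Alternatives were DESeq2 1.42.0, limma-voom (limma 3.58.1), other size factors, no filter or a stricter one, the 4 libraries alone, HOX or erythroid level as a covariate, and leaving out each library.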

Additional observations from a re-analysis of the deposited data

How the results depend on the processing

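The number of genes that differed between QKO and TKO was 54 (22 higher, 32 lower). It was 100 (37 and 63) with DESeq2, 160 (52 and 108) without a filter on low counts, and 33, of which 16 were lower, with the erythroid level as a covariate. Other size factors, the stricter filter, limma-voom, the HOX covariate and the 4 libraries alone gave between 48 and 72. Leaving out 1 library gave between 25 and 80 in all, between 9 and 28 higher and between 10 and 52 lower. The 4 oligodendrocyte precursor genes lower in QKO became 1 with the erythroid covariate and between 0 and 3 with 1 library left out, where a group has 1 library that is assumed to vary like the others. The cause of these shifts was not tested. No paired analysis was possible because the labels give no replicate numbers that pair libraries.

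None of the 46 called genes that are named changed direction in any alternative, and the other 8 were not followed one by one. Among named genes that were not called, the sign of some log2 fold changes turned. Over the 4 leave-outs the values ran through 0 for Cop1 (-0.12 to 0.031), Jun (-0.10 to 0.41), Ddb1 (-0.025 to 0.15), Rbx1 (-0.037 to 0.088), Trib2 (-0.12 to 0.021), Dusp4 (-0.073 to 0.32), Lrrn1 (-0.028 to 0.18), Gpr17 (-0.045 to 0.31), Sirt2 (-0.11 to 0.020), Nfasc (-0.16 to 0.069), Cldn11 (-0.016 to 0.17) and Fabp7 (-0.10 to 0.079). They did so too for Ptn (-0.17 to 0.044), Vim (-0.065 to 0.064), Tnc (-0.28 to 0.052), Tac2 (-0.22 to 0.085), Ier5 (-0.18 to 0.16), Mcm7 (-0.054 to 0.15), Top2a (-0.091 to 0.18), H2-D1 (-0.10 to 0.014), H2-T24 (-0.39 to 0.92), C1qb (-0.19 to 0.088), Mki67 (-0.18 to 0.15) and Gh (-0.13 to 10.7). With the HOX covariate they were Rbx1 (-0.0141), Mcm7 (-0.0014), Top2a (-0.0142) and H2-D1 (0.00067). With the erythroid covariate they were Fabp7 (0.0031), Top2a (-0.0049), C1qc (0.0087) and C1qb (0.0076). DESeq2 and RLE size factors turned Vim (0.0018 with both) and Ier5 (0.0010 and 0.0011).

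With 2 libraries per group, small differences cannot be shown. No scaling moved the median of all genes by more than 0.01.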
